A study of Homo sapiens with 8 samples.

Results

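The effect of a SIRT6 short hairpin that MM1.S and NCI-H929 share was taken as the mean of the 2 within-line differences, shSIRT6 minus scramble, on all 8 arrays of the series. MM1.S and NCI-H929 are established human multiple myeloma cell lines, that is, lines of malignant plasma cells. The 4 groups are MM1.S scramble, MM1.S shSIRT6, NCI-H929 scramble and NCI-H929 shSIRT6, with 2 arrays each. Both lines were grown in RPMI-1640 medium with fetal bovine serum, glutamine, penicillin and streptomycin, and total RNA was hybridised to GeneChip Human Gene 2.0 ST arrays. The scramble arrays also carry a hairpin construct, one without the SIRT6 target, so no untransduced cells are compared. The labels name 1 silencing condition per line and give neither the hairpin sequence nor the days after delivery. No label ties the 2 arrays of a group to separate cultures. The p-values therefore reflect only how far these arrays differ from each other, a spread that can be technical. The annotation used gave 14884 gene symbols and left 32128 of 48226 transcript clusters unnamed. A gene not read here can therefore still be on the array. Each symbol was read by its brightest cluster, and 12734 passed a filter on low values and were tested. A gene counted as called when limma gave it a Benjamini-Hochberg adjusted p under 0.05. Its size was taken as similar in both lines where the differences had the same sign and the smaller was at least 0.5 of the larger.

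SIRT6 is a nuclear enzyme that uses NAD to remove acetyl groups, and other acyl groups, from histones and other proteins. It is known for silencing genes of glucose metabolism, for restraining NF-kB target genes and for taking part in the repair of DNA double-strand breaks, where it helps recruit repair proteins. In myeloma cells, which carry a high burden of DNA damage and secrete large amounts of antibody, both the repair and the stress pathways are widely studied.

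Median log2 levels per array, over all transcript clusters, ran from 3.88 to 3.92 with scramble and from 3.94 to 3.97 with shSIRT6, higher with shSIRT6 in both lines. Arrays of the same group correlated at 0.989 to 0.992, and arrays of the same line with different constructs at 0.985 to 0.989. The 17 plasma cell genes that were read averaged log2 levels of 8.7 to 9.0 per array, while markers of T and NK cells, monocytes, stroma and B cells averaged 3.76 to 4.67.

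SIRT6 itself was lower with the hairpin in both lines but did not pass the test. The MM1.S scramble arrays read log2 levels of 6.09 and 5.88, against 5.60 and 5.78 for shSIRT6. The NCI-H929 scramble arrays read 6.53 and 6.97, against 6.25 and 6.31. Neither line's shSIRT6 arrays overlapped its scramble arrays. The mean difference was -0.38 ± 0.11 (SE, 8 arrays) on the log2 scale, with an adjusted p of 0.135 in limma, and the 95% interval ran from -0.65 to -0.12. An exact two-sided permutation test within lines gave p = 0.0556, the smallest that its 36 arrangements allow. The interval of the difference between lines, NCI-H929 minus MM1.S, ran from -0.71 to 0.36, and holds 0.

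In the mean of both lines 11 of 12734 genes were called, 0.0864% of those tested, and all 11 fell. No gene was called higher (0, limma), the smallest adjusted p among rises being 0.0665, although an unadjusted p below 0.05 was reached by 1734 lower genes, 13.6%, and by 977 higher ones, 7.67%. Of the 11, only TOM1L1 and ZNF519 fell by similar amounts in both lines. The other 9 fell by a larger amount in MM1.S. For 8 of the 11 the shSIRT6 arrays lay below the scramble arrays without overlap in both lines, as for 10.5% of all genes tested. The 11 were chosen by p on these same arrays, which favours such a lack of overlap. With a prior variance that follows the level of the gene (limma's trend option), 911 genes were called, 7.15%, of which 776 were lower and 135 higher, with all 11 among them. Leaving out any 1 array left 0 called in the fit without that trend, and from 1877 to 2693 genes at an unadjusted p below 0.05.

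**Figure D1:**
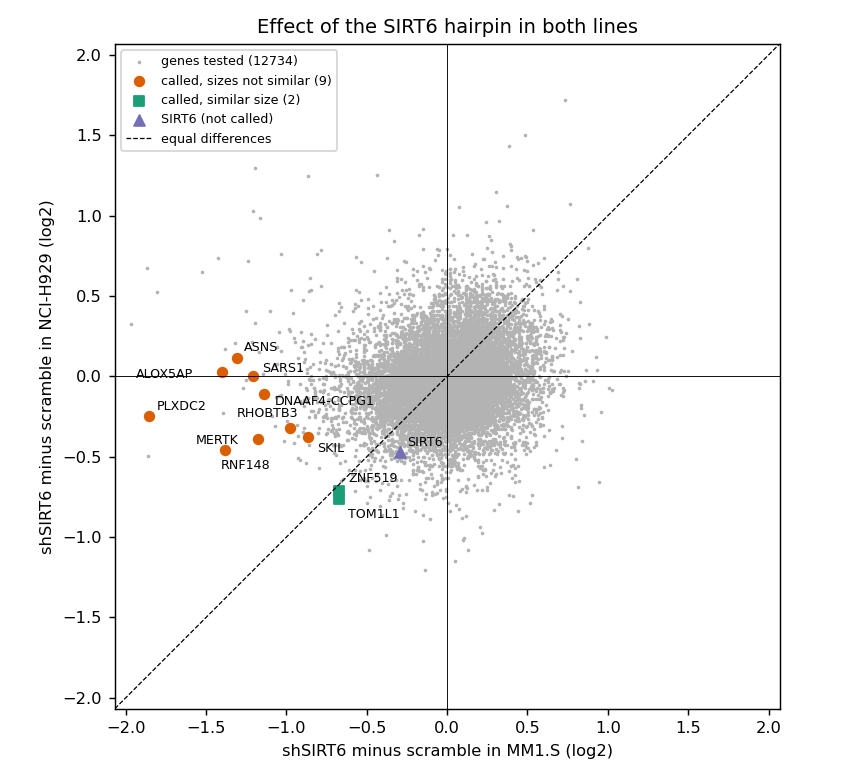
Log2 difference, shSIRT6 minus scramble, in MM1.S (x axis) against NCI-H929 (y axis) for the 12734 genes tested, 1 grey point per gene, with the 11 called genes and SIRT6 marked and equal differences as a dashed line. TOM1L1 and ZNF519 (squares) lie close to the dashed line, while the other 9 called genes (circles) lie far to the left of it, at MM1.S differences of -0.865 to -1.855.

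The promoters of TOM1L1 and ZNF519, the genes called with similar sizes, are shown because they moved together. The windows run from 250 bases before to 50 after the gene's start, on the gene's strand, from RefSeq (GRCh38.p14). TOM1L1's lies at chr17:54900602-54900901 on the + strand and ZNF519's at chr18:14132386-14132685 on the - strand. The motifs searched, on both strands, were the ETS core (CCGGAAG), the GC box (GGGCGG), the motif CCAAT, the CRE (TGACGTCA), the E-box (CACGTG) and the TATA motif (TATAAA), and capitals mark the matches.
TOM1L1: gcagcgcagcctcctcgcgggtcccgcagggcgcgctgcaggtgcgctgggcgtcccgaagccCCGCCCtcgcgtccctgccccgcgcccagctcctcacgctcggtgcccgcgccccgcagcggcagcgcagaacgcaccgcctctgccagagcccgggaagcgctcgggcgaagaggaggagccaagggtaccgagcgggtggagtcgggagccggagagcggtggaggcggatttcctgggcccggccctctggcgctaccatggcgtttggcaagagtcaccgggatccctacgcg
ZNF519: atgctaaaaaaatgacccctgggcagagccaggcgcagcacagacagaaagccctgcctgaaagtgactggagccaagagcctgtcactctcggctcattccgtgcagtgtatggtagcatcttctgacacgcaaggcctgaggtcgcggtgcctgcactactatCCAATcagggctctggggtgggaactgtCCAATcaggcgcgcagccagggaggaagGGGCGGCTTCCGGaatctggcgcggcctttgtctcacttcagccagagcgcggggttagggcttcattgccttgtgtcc
Both windows hold 1 GC box, and only ZNF519's holds CCAAT (2 matches) and the ETS core (1 match, next to the GC box without overlap). Over the 27305 promoters of the RefSeq table, 44.6% hold the GC box, 35.7% CCAAT and 10.7% the ETS core. Neither window holds the CRE, E-box or TATA letters, which 2.0%, 7.4% and 12% of these promoters hold. A match is a description of these letters and not a bound site.

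TOM1L1 encodes an adaptor protein of endosomes that binds and activates Src-family kinases. Its log2 level in MM1.S was 7.22 and 7.02 with scramble, against 6.42 and 6.48 with shSIRT6. In NCI-H929, where the gene was dimmer, it was 4.84 and 4.88 with scramble, against 4.02 and 4.18 with shSIRT6. The hairpin arrays lay below the scramble arrays in both lines without overlap. The differences were -0.67 in MM1.S and -0.76 in NCI-H929, folds of 1.59 and 1.69. The mean was -0.715 ± 0.079 (SE), with an adjusted p of 0.0387 in limma, and the 95% interval of the difference between lines ran from -0.46 to 0.28.

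ZNF519 encodes a zinc finger protein of the KRAB type. Its log2 level in MM1.S was 5.07 and 4.95 with scramble, against 4.37 and 4.31 with shSIRT6. In NCI-H929 the scramble arrays read 5.44 and 5.21 and the hairpin arrays 4.66 and 4.56. Here too the arrays of both constructs did not overlap. The mean difference was -0.69 ± 0.081 (SE), with an adjusted p of 0.0473 in limma, and the differences were -0.67 in MM1.S and -0.715 in NCI-H929. The interval of the difference between lines ran from -0.42 to 0.33.

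Of the remaining called genes, RNF148, MERTK, RHOBTB3, SKIL and PLXDC2 were lower in both lines without overlap, but by less in NCI-H929. MERTK, a receptor tyrosine kinase that binds GAS6 and protein S, stood in MM1.S at 7.96 and 7.73 with scramble and at 6.69 and 6.64 with shSIRT6. Near the bottom of the scale in NCI-H929, it read 4.17 and 4.22 with scramble, against 3.75 and 3.86 with shSIRT6. Its differences of -1.18 and -0.39 were folds of 2.27 and 1.31, and the interval of their difference, 0.42 to 1.16, does not hold 0 (unadjusted).

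RNF148, a RING finger gene, showed differences of -1.385 in MM1.S and -0.455 in NCI-H929. RHOBTB3, a protein of vesicle transport, showed -0.975 and -0.32. SKIL, which encodes SnoN, a repressor of TGF-beta signalling through SMAD proteins, lay just outside the size rule with -0.865 and -0.38, a ratio of 0.439. TOM1L1 was the called gene just inside it, with a ratio of 0.882. PLXDC2, a plexin-domain membrane protein, showed the most unequal pair of the 5, -1.855 in MM1.S and -0.245 in NCI-H929.

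For 4 further genes the value in NCI-H929 was near 0 and the mean came from MM1.S. ALOX5AP, the protein that presents arachidonic acid for leukotriene synthesis, showed -1.40 in MM1.S and 0.025 in NCI-H929. ASNS, which makes asparagine, showed -1.31 and 0.115, its NCI-H929 shSIRT6 arrays lying above the scramble arrays without overlap. SARS1, the seryl-tRNA synthetase of the cytosol, showed -1.21 and 0.005. DNAAF4-CCPG1, a readthrough transcript whose signal cannot be told apart from that of its 2 parent genes, showed -1.14 and -0.11. ASNS, SARS1 and DNAAF4-CCPG1 are named after their values were seen. For these 4 genes and for PLXDC2 the difference between lines itself passed the test, as it did for 26 genes in all, 0.204%, with adjusted p of 0.017 to 0.0412 in limma.

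**Figure D2:**
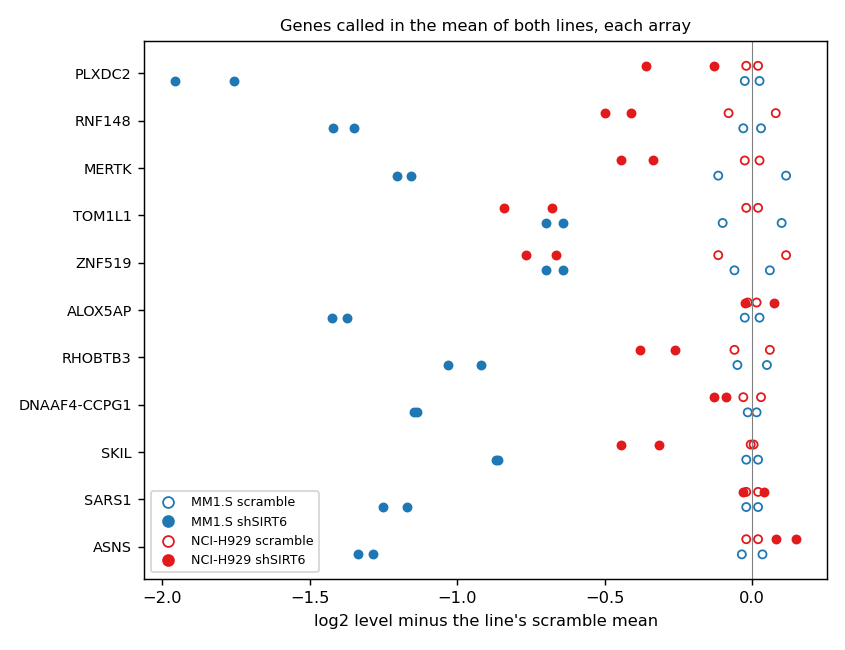
Log2 level of each of the 8 arrays minus the scramble mean of its line, for the 11 called genes in order of mean difference (open circles scramble, filled circles shSIRT6, blue MM1.S, red NCI-H929). Filled circles of both colours lie close together for TOM1L1 and ZNF519, and for ALOX5AP, SARS1 and ASNS the red filled circles lie among or above the scramble arrays.

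Across the 12734 genes the 2 lines' differences were only weakly related, with a Pearson r of 0.163 and a Spearman rho of 0.191. These describe genes, which are not independent replicates, measured on arrays normalized together. The difference had the same sign in both lines for 7150 genes, 56.1%, of which 4070 were lower and 3080 higher (negative differences made up 48.8% in MM1.S and 58.1% in NCI-H929), and the sizes were similar as well for 3129, 24.6%. The shSIRT6 arrays lay below the scramble arrays without overlap in both lines for 1332 genes, 10.5%, and above them for 635, 4.99%. This split of lower against higher genes moved with the scaling, to 2030 against 360 after centring each array on its median and to 858 against 743 after quantile normalization. With the deposited scaling, similar sizes were also met by 840 of these lower genes, 6.6% of all tested, and by 429 of the higher ones, 3.37%. The opposite pattern, no overlap in either line but in opposite directions, was seen for 794 genes higher in MM1.S and lower in NCI-H929, 6.24%, and for 359 of the reverse kind, 2.82%.

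Genes called in MM1.S were then looked at on the NCI-H929 arrays. These arrays had no part in the MM1.S difference, but they entered the filter and the pooled spread behind the calls. A small spread in NCI-H929 favours a call and also a lack of overlap there, in either direction. In MM1.S 169 genes were called, 1.33%. Of the 143 that fell, 1.12% of those tested, 88 were lower in NCI-H929, 61.5% against 58.1% of all genes. Their median difference was -0.79 in MM1.S and -0.06 in NCI-H929, where all genes stood at -0.045. Without overlap, 39.9% were lower in NCI-H929, against 30% of all genes, and 24.5% were higher, against 16.6%. Of the 26 genes that rose in MM1.S, 0.204% of those tested, 18 were lower in NCI-H929, 69.2%. NCI-H929 alone had 3 called genes, 0.0236%, and was not used to choose a set.

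Which genes moved alike depended on their level. In the dimmest quartile of genes, with log2 levels of 3.05 to 4.22, 2.61% were lower and 8.01% higher without overlap in both lines. In the brightest, at 7.15 to 12.78, 19.9% were lower and 1.6% higher. Within that brightest quartile the lines' differences were not positively related (Pearson r across genes of -0.0605). After quantile normalization of the 8 arrays the lower and higher shares became 858 and 743 genes of 12737, and 8.95% and 6.16% in the brightest quartile. Cyclic loess gave 1096 and 559 genes, 8.61% and 4.39% of all, and 10.1% and 5.94% in the brightest quartile. Centring each array on its median, which makes the array medians equal, gave 30.9% lower and 0.597% higher in the brightest quartile. In the dimmest quartile it gave 4.27% and 4.59%. What causes the pattern was not tested.

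**Figure D3:**
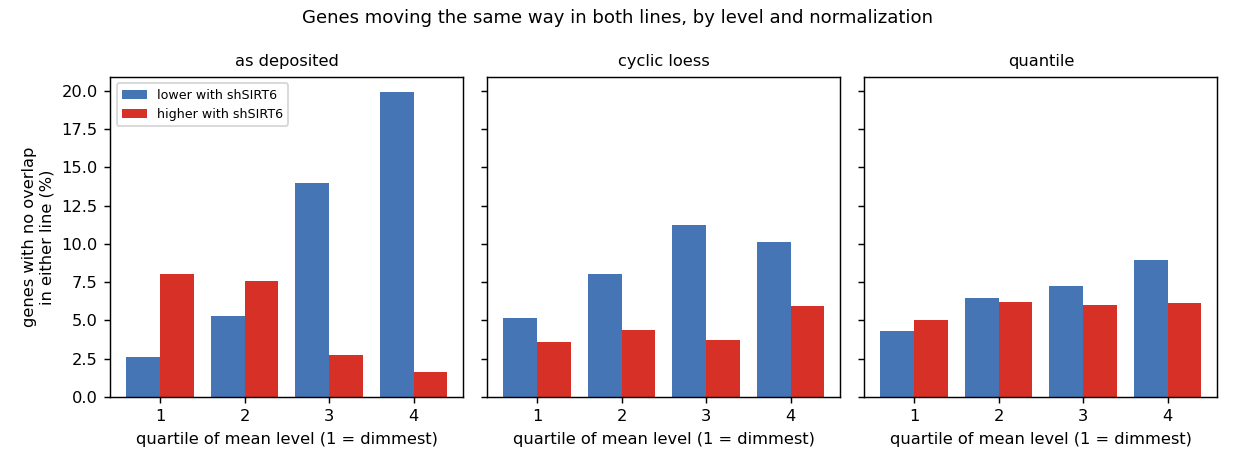
Share of genes (y axis, percent) whose shSIRT6 and scramble arrays did not overlap in either line, lower (blue) or higher (red) with shSIRT6 in both, by quartile of mean level (x axis), for the values as deposited and after 2 further normalizations. The blue bar rises from 2.61% to 19.9% across the quartiles as deposited, and from 4.27% to 8.95% after quantile normalization.

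The next genes by p with similar sizes and no overlap in either line were not called, with adjusted p of 0.0546 to 0.0665 for the 10 lower ones and of 0.0665 to 0.0772 for the 12 higher ones. With the level-dependent prior variance 23 of the 24 genes formed by these and the 2 called ones passed, and HSPA6 missed at an adjusted p of 0.0505. They are described by their values. The lower ones mix transcription regulators, an interferon-induced gene and adaptor proteins.

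ZBTB8A and ZBTB41 encode zinc finger proteins with a BTB domain. ZBTB8A stood in MM1.S at 6.14 and 6.07 with scramble, against 5.53 and 5.59 with shSIRT6, and in NCI-H929 at 6.37 and 6.25 and at 5.77 and 5.67. Its differences, -0.545 and -0.59, were close in size, with an interval of the difference from -0.37 to 0.28. ZBTB41 was lower by a mean of -0.545, with -0.665 in MM1.S and -0.425 in NCI-H929.

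GSDMB, a gasdermin that forms membrane pores after cleavage, had nearly equal differences of -0.66 in MM1.S and -0.65 in NCI-H929. Its MM1.S levels were 6.61 and 6.38 with scramble, against 5.99 and 5.68 with shSIRT6, and its NCI-H929 levels 6.19 and 6.17 with scramble, against 5.51 and 5.55 with shSIRT6. The interval of the difference between lines still ran from -0.43 to 0.45. PLSCR1, a phospholipid scramblase induced by interferon, was lower by a mean of -0.58, with -0.51 and -0.65.

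REPS2, an endocytosis adaptor, was lower by a mean of -0.59. CCDC88A, which encodes girdin, an actin-binding protein of cell migration, was lower by -0.47 in spite of a higher level in NCI-H929 (7.76 and 7.66 with scramble) than in MM1.S (4.97 and 4.87). The membrane protein genes TMEM263 and TMEM65 were lower by -0.535 and -0.55. The noncoding or uncharacterised loci LOC100507412 and LINC01260 were lower by -0.72 and -0.55.

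The higher genes had smaller mean differences, 0.39 to 0.64, and most were dim. RELB, a subunit of the noncanonical branch of NF-kB, was the brightest, at 5.83 and 5.88 with scramble, against 6.44 and 6.28 with shSIRT6 in MM1.S, and at 5.58 and 5.66 and at 5.90 and 6.03 in NCI-H929. Its mean difference was 0.425 ± 0.074 (SE) and its adjusted p 0.069 in limma. The arrays of both constructs did not overlap in either line. The 27 tested genes of the NF-kB list did not share this, since 16 were negative and 11 positive, with a median of -0.0325 against -0.0225 over all genes.

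NKD1, an inhibitor of Wnt signalling that binds Dishevelled, had the lowest p among the rises of similar size. Its levels were 4.87 and 4.99 with scramble, against 5.47 and 5.52 with shSIRT6 in MM1.S, and 5.31 and 5.45 and then 5.77 and 5.81 in NCI-H929, a mean difference of 0.49 ± 0.071 (SE). HSPA6, a strictly inducible HSP70 chaperone, was higher by a mean of 0.44, although 15 of the 21 heat shock chaperones tested were negative. The zinc finger genes ZNF8 and PRDM16, the latter a transcription regulator of brown fat and blood stem cells, were higher by 0.40 and 0.39. The zinc finger gene ZFP30 also rose, but its MM1.S scramble arrays read 3.02 and 2.97. These lie below the filter level of 3.045, so its size is not given. CCL27, a skin chemokine, SYT8, a synaptotagmin, SPMAP2, a sperm microtubule-associated protein, and the antisense transcript SSTR5-AS1 were higher by 0.50, 0.43, 0.465 and 0.62, all with a mean log2 level below 5 over the 8 arrays.

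**Figure D4:**
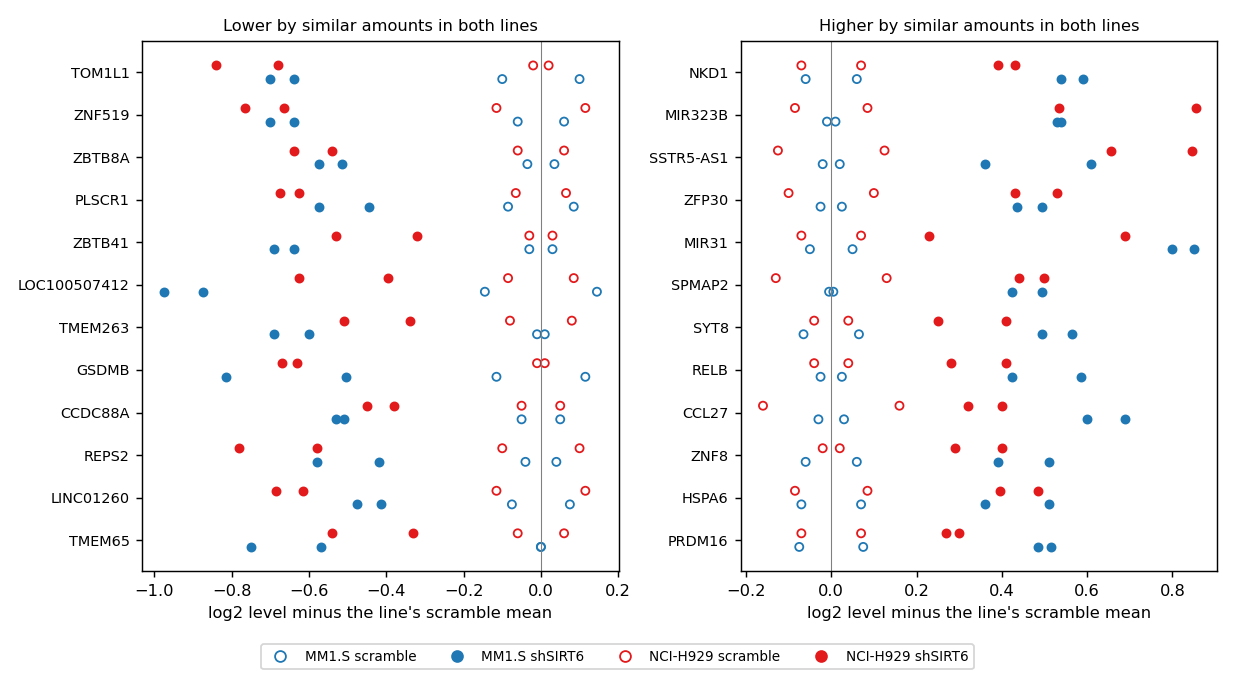
Log2 level of each array minus the scramble mean of its line, for the 12 lower (left) and 12 higher (right) genes with similar sizes in both lines (open circles scramble, filled circles shSIRT6, blue MM1.S, red NCI-H929). Filled circles lie to the left of the open ones for every gene on the left and to the right for every gene on the right, as the choice of genes requires, and only TOM1L1 and ZNF519 were called.

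Among microRNA genes, MIR31 and MIR323B were higher by similar amounts, and MIR29A was lower in both lines. Their mature sequences are shown with the seed, bases 2 to 8, in capitals, from RefSeq (GRCh38.p14), together with those of MIR222, MIR4270 and MIR3159, which passed in the trend fit described further on. The array reads transcript from the locus and is not a measurement of the mature form.
hsa-miR-31-5p: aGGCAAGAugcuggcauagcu
hsa-miR-323b-5p: aGGUUGUCcguggugaguucgca
hsa-miR-323b-3p: cCCAAUACacggucgaccucuu
hsa-miR-29a-3p: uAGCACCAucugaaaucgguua
hsa-miR-29a-5p: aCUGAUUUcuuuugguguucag
hsa-miR-222-3p: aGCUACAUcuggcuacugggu
hsa-miR-222-5p: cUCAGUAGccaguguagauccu
hsa-miR-4270: uCAGGGAGucaggggagggc
hsa-miR-3159: uAGGAUUAcaagugucggccac
No seed is shared among them. The loci are chr9:21512158-21512178 (- strand) for miR-31-5p, chr14:101056233-101056255 and chr14:101056269-101056290 (+ strand) for miR-323b-5p and miR-323b-3p, and chr7:130876748-130876769 and chr7:130876786-130876807 (- strand) for miR-29a-3p and miR-29a-5p. Those of miR-222-3p and miR-222-5p are chrX:45747036-45747056 and chrX:45747073-45747094 (- strand), that of miR-4270 chr3:15496279-15496298 (- strand) and that of miR-3159 chr11:18387796-18387817 (+ strand). MIR31, a locus often deleted with its neighbour CDKN2A in cancer, stood in MM1.S at 3.26 and 3.16 with scramble, against 4.06 and 4.01 with shSIRT6. In NCI-H929 the scramble arrays read 3.52 and 3.38 and the hairpin arrays 4.14 and 3.68, so its sizes were 0.825 and 0.46. MIR323B, of the imprinted cluster on chromosome 14, was higher by 0.535 and 0.695. Its MM1.S scramble arrays, at 3.08 and 3.06, lay just above the filter level of 3.045, so its MM1.S size is uncertain.

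MIR29A, whose mature form targets collagen and DNA methyltransferase transcripts, was above the filter level of 3.045 only in the MM1.S scramble arrays, so its size is not given. In MM1.S it was 4.95 and 4.19 with scramble, against 2.86 and 2.56 with shSIRT6. In NCI-H929 the scramble arrays read 2.78 and 2.69 and the hairpin arrays 2.23 and 2.25. Over the 605 microRNA genes tested, of 1098 named, 282 were negative and 319 positive, with a median of 0.0125.

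The trend fit, chosen as an alternative because it gives dim and bright genes different prior variances, called 392 genes with similar sizes and no overlap in either line, 332 lower (2.61%) and 60 higher (0.471%). The largest of these were named after their values were seen. SLFN11, which blocks stressed replication forks and sensitises cells to DNA-damaging drugs, stood in MM1.S at 8.70 and 8.64 with scramble, against 8.13 and 8.25 with shSIRT6. In NCI-H929 the scramble arrays read 6.87 and 6.96 and the hairpin arrays 6.40 and 5.93. Its mean difference was -0.615 ± 0.090 (SE of the trend fit), with an adjusted p of 0.00209 in that fit.

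VTRNA2-1, a small noncoding RNA that restrains the kinase PKR, was lower by a mean of -0.685, from 6.49 and 6.47 to 5.51 and 5.85 in MM1.S and from 6.36 and 6.28 to 5.92 and 5.58 in NCI-H929. PBX3, a homeobox cofactor, and ZNF432, a KRAB zinc finger gene, were lower by -0.60 and -0.645, and KIAA0513 by -0.64. The NCI-H929 shSIRT6 arrays of ZNF432 stood apart, at 3.95 and 4.66, against 4.89 and 5.15 with scramble. So did the MM1.S shSIRT6 arrays of KIAA0513, at 4.47 and 5.15, against 5.34 and 5.28. MIR222 and MIR3925 were lower by -0.61 and -0.60. MRPL42P5, a pseudogene that may share signal with MRPL42, was lower by -0.71. Its MM1.S shSIRT6 arrays read 5.10 and 6.01, against 6.60 and 6.27 with scramble. In the limma fit without the trend, the adjusted p was 0.106 for ZNF432, 0.0992 for KIAA0513 and 0.135 for MRPL42P5.

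MIR4270 showed the largest mean rise of this kind, 0.92 ± 0.17 (SE of the trend fit), but its MM1.S scramble arrays stood apart from each other, at 5.03 and 5.90, against 6.49 and 5.97 with shSIRT6. In NCI-H929 they were 5.29 and 5.18, against 6.24 and 6.38. MIR3159 was higher by 0.84, WEE2-AS1 and PI16 by 0.67 each, and ATOH1, a neural transcription factor, by 0.71. The SNAR-F and EFNA2 loci were higher by 0.65 and 0.635. KRT79 and KRT74 also rose, but their scramble arrays lay around the filter level of 3.045, so their sizes are not given. These arrays read 2.80 to 3.09 for KRT79 and 2.66 to 3.29 for KRT74. Adding the rule that each line pass on its own left 0 genes in either fit, and 330 genes, 2.59%, had an unadjusted p below 0.05 in each line with the same sign, 234 lower (1.84%) and 96 higher (0.754%).

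Gene lists were then set beside all genes tested, among which 54.7% were negative in the mean, 32% were lower in both lines and 24.6% had similar sizes. Repair of DNA double-strand breaks was, of the lists with at least 5 tested members, the one most often lower in both lines. Of its 51 genes 27 had a named cluster in the annotation used, and all 27 passed the filter. The mean was negative for 25 of them and the difference was negative in both lines for 22, 81.5%. None was called. The median was -0.13 in MM1.S and -0.195 in NCI-H929, and sizes were similar for 12, 44.4%. At an unadjusted p below 0.05, 13 were lower and 1 higher, as were 13.6% and 7.67% of all genes. The number lower in both lines moved with the scaling, to 18 of 27 after cyclic loess and 16 after quantile normalization. The list's median for the mean of both lines, -0.19 as deposited, was then -0.131 and -0.105.

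The shSIRT6 arrays lay below the scramble arrays in both lines, without overlap, for 12 of the 27 repair genes, 44.4% against 10.5% of all genes and 19.9% of the brightest quartile. Taken line by line, 14 of the 27 were lower and 2 higher without overlap in MM1.S, where 26.3% of all genes were lower and 24.4% higher. In NCI-H929 19 were lower and 1 higher, against 30% and 16.6% of all genes. The mean log2 level over the 27 was 7.40 and 7.37 with scramble, against 7.29 and 7.22 with shSIRT6 in MM1.S. In NCI-H929 the scramble arrays read 7.31 and 7.30 and the hairpin arrays 7.07 and 7.06. After cyclic loess normalization 10 of 27 did not overlap, 37% against 8.61% of all genes, and after quantile normalization 5 of 27, 18.5% against 6.74%. The trend fit called 8 of the 27, all lower, 29.6% against 6.09% of all genes, and after cyclic loess 3 of the 27, 11.1% against 3.75%.

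Members are given by role. Among those described here, EME1, RAD51B and TP53BP1 had the largest mean falls, -0.63, -0.485 and -0.435. EME1, which with MUS81 cuts branched DNA, was lower by a mean of -0.63 ± 0.088 (SE). It stood in MM1.S at 6.18 and 6.27 with scramble, against 5.88 and 5.76 with shSIRT6, and in NCI-H929 at 6.16 and 6.39 and at 5.31 and 5.52. Its sizes, -0.405 and -0.86, fell just short of similar, and its partner MUS81 showed -0.075 and -0.055.

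RAD51B and RAD51C, genes of homologous recombination, were lower by -0.485 and -0.26. Near the bottom of the scale, RAD51B stood in MM1.S at 3.95 and 3.72 with scramble, against 3.54 and 3.19 with shSIRT6. In NCI-H929 it read 3.89 and 4.05 and then 3.36 and 3.58, and its differences were -0.47 and -0.50. RAD51C was less even, at -0.40 in MM1.S and -0.115 in NCI-H929. RAD54B, a helper of strand exchange, showed -0.52 and -0.195, XRCC3 -0.16 and -0.27, and RAD51AP1 -0.18 and -0.215.

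Of the sensors and kinases, MRE11, the nuclease of the complex that first binds broken ends, was lower by -0.235 in each line. Its partners NBN and RAD50 did not follow, with means of -0.0525 and -0.02. ATR, the kinase that answers exposed single-stranded DNA, showed -0.295 in MM1.S and -0.155 in NCI-H929, and its target CHEK1 -0.11 and -0.275. TP53BP1, which steers breaks towards end joining, was lower mainly in NCI-H929, at -0.17 and -0.70.

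The helicase BRIP1 showed -0.125 and -0.23, the exonuclease EXO1 -0.15 and -0.185, and BARD1, the partner of BRCA1, -0.055 and -0.215. Of the end-joining genes, XRCC5 and XRCC6 were flatter, at -0.03 and -0.055 and at -0.04 and -0.17. XRCC4 had even sizes, -0.24 and -0.245, but overlapping arrays in both lines. The 2 positive members were the scaffold genes MDC1 and SLX4, higher in MM1.S by 0.36 and 0.415 and slightly lower in NCI-H929, at -0.08 and -0.045.

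The 19 tested genes of base excision repair and the PARP family were lower in both lines for 12, 63.2%, with a median of -0.0875. After cyclic loess 7 of the 19 were lower in both lines, with a median of -0.057, and after quantile normalization 6, with -0.0361. PARP2, a poly(ADP-ribose) polymerase that answers DNA breaks and uses the same cofactor as SIRT6, was lower by a mean of -0.50 ± 0.071 (SE), with -0.725 in MM1.S and -0.275 in NCI-H929. The arrays did not overlap in either line, and its adjusted p was 0.0665 in limma. NEIL3, a DNA glycosylase, had similar sizes of -0.345 and -0.305.

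The small Cajal body RNAs (SCARNA genes), which guide modification of spliceosomal RNAs, were lower in both lines for 16 of 23, 69.6%, with medians of -0.19 in MM1.S and -0.135 in NCI-H929. Sizes were similar for 10, 43.5%, and the arrays lay lower without overlap in both lines for 4, 17.4% against 10.5% of all genes. SCARNA21 had the most even pair among the larger ones, -0.425 and -0.42. SCARNA4 and SCARNA6 were lower mainly in MM1.S, at -0.705 and -0.675 against -0.16 and -0.20. The list's median for the mean of both lines, -0.162 as deposited, was -0.113 after quantile and -0.148 after cyclic loess normalization.

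Cytosolic ribosomal protein genes were lower in both lines for 31 of 53, 58.5%, and of similar size for 18, 34%, with medians of -0.055 and -0.14. RPL34, a protein of the large ribosomal subunit, stood at 8.12 and 8.07 with scramble, against 7.85 and 7.76 with shSIRT6 in MM1.S, and at 8.30 and 8.33 and then 8.09 and 7.97 in NCI-H929. RPS27L, a p53-induced relative of RPS27, was as even, at -0.385 and -0.375. RPL3L, the muscle form of RPL3, was higher by 0.48 and 0.415, the 1 member higher without overlap in both lines. The mean was positive for 9 of the 53, and 2 were higher in both lines. After quantile normalization 20 of 53 were lower in both lines, with a median of -0.0241 for the mean.

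**Figure D5:**
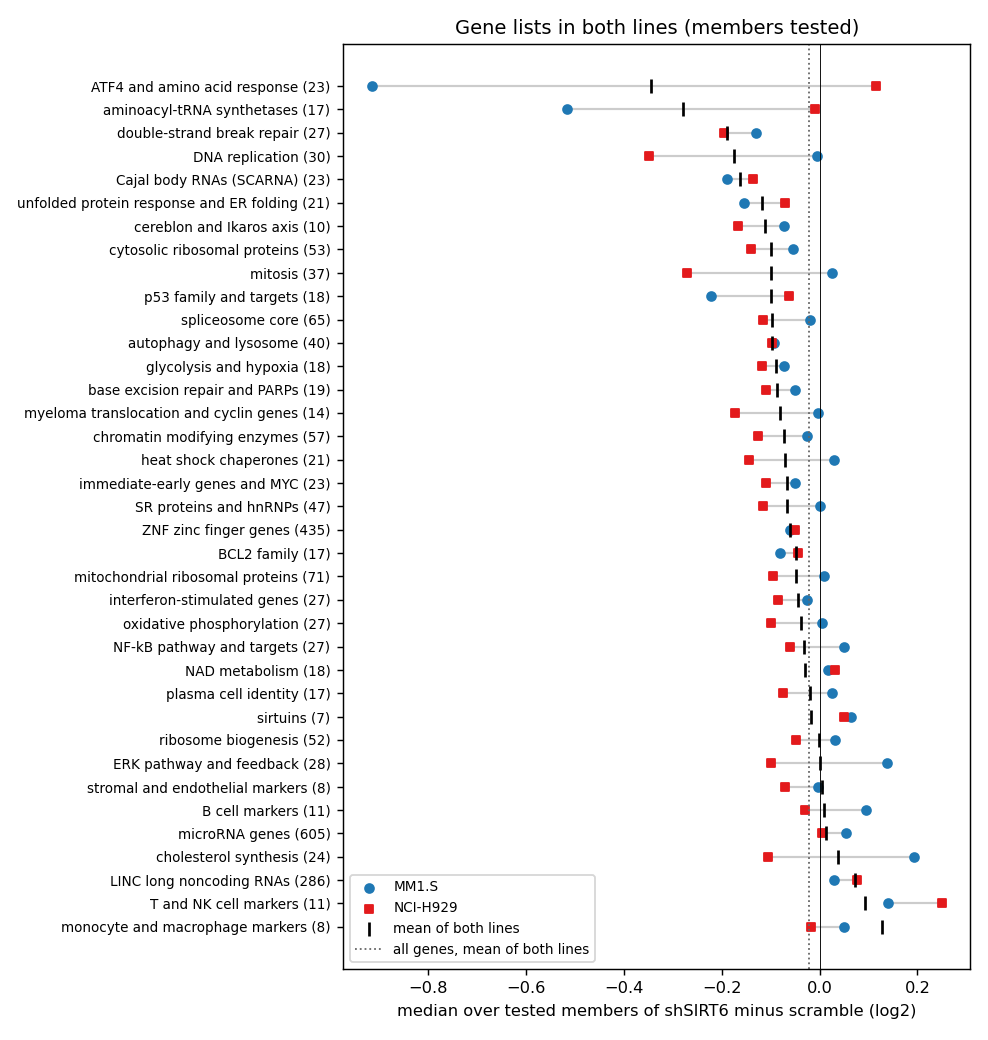
Median log2 difference, shSIRT6 minus scramble, over the tested members of each gene list (number in brackets) in MM1.S (blue circles), NCI-H929 (red squares) and the mean of both lines (black bars), with the median of all genes as a dotted line. The median is lower in both lines for double-strand break repair (-0.13 and -0.195) and the Cajal body RNAs (-0.19 and -0.135), while the ATF4 list lies at -0.915 in MM1.S and 0.115 in NCI-H929.

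In other lists the lines did not move alike. The ATF4 and amino acid response list had a median of -0.915 in MM1.S and 0.115 in NCI-H929, with similar sizes for 1 of 23, 4.35%. Its mean log2 level fell in MM1.S, from 7.785 and 7.765 with scramble to 7.006 and 6.982 with shSIRT6. In NCI-H929 it rose, from 8.079 and 8.059 to 8.342 and 8.314. Its 2 called members were ASNS and SARS1. The aminoacyl-tRNA synthetases, at -0.515 and -0.01, had similar sizes for 1 of 17, 5.88%. DNA replication genes were lower in NCI-H929, with medians of -0.005 and -0.35, as were mitotic genes, at 0.025 and -0.27. Similar sizes were found for 10% and 16.2% of these.

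Some members still had close values. HMMR, a spindle-associated hyaluronan receptor, showed -0.285 and -0.34, and KIF20B, a kinesin of cell division, -0.25 and -0.27. Their arrays did not overlap in either line, and neither was called, with adjusted p of 0.0922 and 0.118 in limma. CDC6, which loads the replicative helicase, was less even, at -0.21 and -0.515.

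The study's title concerns the spliceosome. Of the 65 tested core spliceosome genes 31 were lower in both lines, 47.7%, and 13 had similar sizes, 20% against 24.6% of all genes. Arrays did not overlap, lower, for 7, 10.8%, close to the 10.5% of all genes. After cyclic loess 17 of the 65 were lower in both lines, as were 3922 of all 12734 genes. After quantile normalization 15 were, as were 3331 of 12737. Without overlap, 3 were then lower and 4 higher after cyclic loess, and 2 lower and 3 higher after quantile normalization. Among SR proteins and hnRNPs the medians were 0 in MM1.S and -0.115 in NCI-H929. SRPK2, a kinase of SR proteins, and TARDBP, an RNA-binding splicing regulator, were the closest pairs by p, at -0.395 and -0.275 and at -0.285 and -0.26. Neither was called.

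Glycolysis genes, which SIRT6 is known to silence, were not higher as a group. Of 18 glycolysis and hypoxia genes read, 15 were negative in the mean, 9 were lower in both lines and none higher at an unadjusted p below 0.05, with medians of -0.0725 and -0.118. After cyclic loess 14 were negative and 7 lower in both lines, and after quantile normalization 10 and 4. The list's median for the mean of both lines was then -0.051 and -0.0324. The trend fit called 1 lower, 5.56% against 6.09% of all genes, and 0 higher, but after cyclic loess 0 lower and 1 higher. Of the other sirtuins, SIRT7 and SIRT5 were positive in both lines, with means of 0.195 and 0.0725, and neither was called. EGR1, an immediate-early transcription factor, was higher without overlap in both lines, by 0.375 in MM1.S and 1.06 in NCI-H929, with a mean of 0.72 ± 0.097 (SE) and an adjusted p of 0.0665 in limma. EGR1 stood at 5.80 and 5.62 with scramble, against 6.25 and 5.92 with shSIRT6 in MM1.S, and at 7.17 and 7.32 and then 8.32 and 8.29 in NCI-H929.

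CRBN and CD38, genes of interest for myeloma treatment, showed small differences of the same sign in both lines. CRBN, the target of the immunomodulatory drugs, was lower by -0.32 in MM1.S and -0.18 in NCI-H929. CD38, an NAD-consuming surface enzyme and antibody target, was lower by -0.275 and -0.17. The arrays of both constructs did not overlap in either line for both genes, and neither was called, with adjusted p of 0.118 and 0.194 in limma. Both genes lie in the brightest quartile, where 19.9% of genes were lower without overlap. Of the 10 tested genes of the cereblon and Ikaros list, 4 were lower and 2 higher in both lines. The 17 plasma cell genes tested, CD38 among them, had medians of 0.025 and -0.075, and 3 were lower in both lines, 17.6% against 32% of all genes.

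Zinc finger (ZNF) genes were lower in both lines for 168 of 435, 38.6%, with medians of -0.06 and -0.05, and ZNF519 was the only one called. Long noncoding LINC genes leaned the other way, with 115 of 286 higher in both lines, as 24.2% of all genes were, and a median of 0.0725. That median was 0.0415 after quantile normalization, 0.02 after median centring and 0.014 after cyclic loess. Most LINC genes were dim, with a median level of 3.89. Markers of T and NK cells, which neither line should express, were higher in both lines for 6 of 11, with medians of 0.14 and 0.25. Those read above the filter averaged 4.33 to 4.88, and none was called. The part of this marker signal in other results was not tested.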

How the data were processed

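The deposited values are log2 levels, 1 row per transcript cluster, and the tools behind them, per the submitters' processing notes, were RMA and the Transcriptome Analysis Console, with the hg19 build. Their versions are not given in the sources used. Without scanner intensities, which were not analysed here, background could not be judged per probe.

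Of 48226 clusters, 16098 carried 1 gene symbol in the annotation used. A gene with several clusters (779 genes) was read by its brightest one over the 8 arrays. The test covered genes averaging above 3.045 on the log2 scale, the 30th percentile over all clusters. limma 3.58.1 in R 4.3.3 (lmFit, eBayes) fitted 4 group means to all 8 arrays, with no block, 4 residual and 3.43 prior degrees of freedom. The main contrast was the mean of both within-line differences. Intervals are 95% intervals of this fit, unadjusted. The number of arrays limits the precision. The fitting code was tested on simulated data.

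Named genes are SIRT6, the 12 largest of each direction among called genes with the same sign, a size ratio of at least 0.5 and no overlap in either line, filled up by lowest p among genes that were not called, the 5 largest called genes outside that rule, those next to the ratio, and up to 3 genes of one sign per list. Others are said to be named after their values were seen; list members given by role were also chosen so. The genes, the 41 lists and the rules were chosen with earlier results of these data known. Alternatives were other filters, normalizations, prior variances, models, blocks, call rules and leaving out each array. The trend fit combined with other settings was added after seeing the data. Promoter and microRNA sequences are RefSeq's, matched by symbol, and no coordinate of the arrays' build was used.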

Additional observations from a re-analysis of the deposited data

Results flagged for a closer look

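For 6 genes named in the text the difference between lines itself passed the test (limma, Benjamini-Hochberg adjusted p below 0.05 over all genes), so their mean is not a shared effect of 1 size. Values are log2, NCI-H929 minus MM1.S, each from 4 arrays per line. PLXDC2 differed by 1.61 (95% interval 1.22 to 2.00, adjusted p = 0.0243). ALOX5AP differed by 1.43 (1.12 to 1.73, adjusted p = 0.017) and ASNS by 1.43 (1.12 to 1.73, adjusted p = 0.017). SARS1 differed by 1.22 (0.91 to 1.52, adjusted p = 0.0275) and DNAAF4-CCPG1 by 1.03 (0.73 to 1.33, adjusted p = 0.0412). PSAT1, a serine synthesis enzyme that was not called in the mean, differed by 0.96 (0.67 to 1.25, adjusted p = 0.0435), with -0.99 in MM1.S and -0.03 in NCI-H929.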

How the results depend on the processing

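The count of 11 called genes depended strongly on the settings. It was 9 without a filter, 98 with a filter at the 50th percentile, 4 after quantile and 5 after cyclic loess normalization, 130 after centring each array on its median, 15 with clusters averaged and 11 with a robust prior. The additive fit gave 0 and the larger of the per-line p-values 0, with 2235 genes at an unadjusted p below 0.05 in the additive fit. Leaving out 1 array gave 0 to 0 calls. The level-dependent prior variance (9.25 prior degrees of freedom) gave 911, and, added after seeing the data, 661 with cyclic loess, 512 with quantile normalization, 994 with a replicate block within each line, 224 and 740 without MM1.S scramble replicate 1 or 2, 796 and 438 without MM1.S shSIRT6 replicate 1 or 2, 313 and 356 without NCI-H929 scramble replicate 1 or 2, 850 and 535 without NCI-H929 shSIRT6 replicate 1 or 2, and 0 with the larger per-line p. All 11 genes stayed called under that prior in each of these settings except the larger-p rule.

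Across genes, the deviations of same-numbered arrays of a line were nearly unrelated (r of 0.0767 in MM1.S and -0.00108 in NCI-H929). This r cannot see a shift shared by all genes, so it does not settle whether the numbers pair arrays. Array medians were 3.88 and 3.92 for replicates 1 and 2 of MM1.S scramble, and 3.94 and 3.97 for MM1.S shSIRT6. They were 3.89 and 3.91 for NCI-H929 scramble, and 3.95 in both NCI-H929 shSIRT6 arrays. A replicate block within each line gave 0 calls and a replicate block across both lines 0, with 2649 and 2814 genes at an unadjusted p below 0.05.

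TOM1L1 lost its call in 13 and ZNF519 in 14 of 19 alternatives, with means of -0.77 to -0.665 and -0.75 to -0.635. SIRT6 was not called in any of 19, with means of -0.49 to -0.27 and adjusted p of 0.0536 to 0.323. SIRT5 changed sign without MM1.S shSIRT6 replicate 1 (-0.0475) and without NCI-H929 shSIRT6 replicate 1 (-0.0075), and ranged from -0.0475 to 0.1925 over the arrays left out. Genes of similar size numbered 1861 at a ratio of 0.67 and 2931 to 3211 without 1 array. Genes not overlapping in both lines numbered 858 lower after quantile normalization, and 2030 lower and 360 higher after median centring. Without 1 array, where fewer arrays make overlap rarer, they numbered 1583 to 2038 lower and 843 to 1080 higher.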
